A study of Homo sapiens with 8 samples.

Results

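The genes described here are 10 genes of cytosolic nucleic acid sensing, taken by symbol from the 25369 genes of the count table. They are the RNA helicases DDX58 (the protein RIG-I), IFIH1 (MDA5) and DHX58 (LGP2), the ubiquitin ligase RNF125, the adaptor MAVS, the DNA sensor MB21D1 (cGAS) and its partner TMEM173 (STING), the kinase TBK1, and the transcription factors IRF3 and IRF7. All 10 were found, and all 10 were among the 14016 genes that passed the filter on low counts. The genes were chosen by their pathway and with earlier results of these libraries known, and RNF125 was selected on its log2 fold change against unmodified cells. Their values against unmodified cells are therefore a description and carry no p-value here. For these 10 genes p-values are given only between modified lines, and they are no independent evidence, because the same libraries had been examined when the genes were chosen.

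The cells were MDA-MB-231, an established human triple-negative breast cancer line, profiled by bulk RNA sequencing in 8 libraries, 2 per group. LBD cells carry a SUN2 without residues 1 to 139, a change meant to break its link to the lamins. Kashlid cells carry a SUN2 without residues 569 to 585, meant to break its link to Nesprin-2G. SUN2KO cells are labelled as a SUN2 knockout and WT cells as wild type, and no infection, ligand or interferon treatment is named in the labels for any group. SUN2 is a protein of the inner nuclear membrane that joins the nuclear lamina to the cytoskeleton through nesprins. The labels state neither how the truncated forms were introduced, nor whether those cells also lacked their own SUN2, nor whether a line was 1 clone. They do not say that replicates came from separate cultures, so a p-value here covers only how far these libraries differ from each other, and that may be technical spread.

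Total counts were 16570099 to 18814795 per library. SUN2 itself averaged 33.6 ± 1.49 CPM (counts scaled to the TMM-adjusted library total, SD, n = 2) in LBD, 36.3 ± 1.28 in Kashlid, 28.0 ± 3.29 in SUN2KO and 82.8 ± 1.30 in WT, so its transcript was lower but not lost in all 3 modified lines. All 6 genes that mark MDA-MB-231 cells were above 1 CPM in every group, with a summed level of 1340 to 1390 CPM in LBD, 1270 in both Kashlid libraries, 1280 to 1310 in SUN2KO and 1550 to 1580 in WT. Luminal and epithelial genes that the line lacks (ESR1, PGR, CDH1 and GATA3) summed to less than 3 CPM in each library. Of 4 immune cell markers, CD3E was at 0 everywhere and the sum reached 2.44 CPM at most. Of 7 markers of HEK293-type cells, a line grown in the same study, 2 passed 1 CPM, and the sum was 16.4 to 19.2 CPM in LBD, 15.7 to 17.7 in Kashlid, 18.2 in both SUN2KO libraries and 30.7 to 30.8 in WT. Most of that sum came from SALL4 (11.9 CPM in LBD, 11.4 in Kashlid, 12.1 in SUN2KO and 21.6 in WT) and TUBB2B (5.14, 4.69, 5.34 and 9.07 in the same order). PAX2 and NEFM were at 0 in the 3 modified lines and below 0.1 CPM in WT, while LIN28B was at 0.676 CPM in LBD, 0.496 in Kashlid, 0.754 in SUN2KO and 0 in WT. Summed ribosomal protein transcripts, a sign of RNA composition, were 8890 to 9030 CPM in LBD, 9980 to 10000 in Kashlid, 9670 to 9760 in SUN2KO and 8100 to 8180 in WT. The part of these marker differences in the comparisons with WT was not tested.

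RIG-I and MDA5 are cytosolic helicases that bind foreign or unusual double-stranded RNA and then engage MAVS on mitochondria, whereas cGAS makes the messenger cGAMP on DNA and cGAMP activates STING. Both routes lead to TBK1, which phosphorylates IRF3 and IRF7 and so starts transcription of type I interferon. DDX58, IFIH1, DHX58 and IRF7 are themselves induced by interferon, while RNF125 adds ubiquitin to RIG-I, MDA5 and MAVS and marks them for degradation.

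The promoters of DDX58, IFIH1 and RNF125 are shown because these genes carried the main differences. All 10 genes matched RefSeq (GRCh38.p14), and 5 of them (DDX58, IFIH1, MAVS, RNF125 and TBK1) had a promoter sequence there. Each line gives the 250 bases before the start site, 5′ to 3′ on the strand of the gene: DDX58 at chr9:32526197-32526446 (minus strand), IFIH1 at chr2:162318685-162318934 (minus strand) and RNF125 at chr18:32018575-32018824 (plus strand). Capitals mark matches to AANNGAAA, the core bound by interferon regulatory factors, or to the longer interferon-stimulated response element, read here as GAAA, any 2 bases and GAAA again, on either strand. Every match to the longer motif holds a match to the shorter one.

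DDX58: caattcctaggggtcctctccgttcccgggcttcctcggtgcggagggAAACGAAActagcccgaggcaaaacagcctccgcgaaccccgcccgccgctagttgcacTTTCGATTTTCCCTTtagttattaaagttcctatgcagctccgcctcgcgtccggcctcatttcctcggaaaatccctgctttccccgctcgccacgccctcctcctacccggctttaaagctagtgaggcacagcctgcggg
IFIH1: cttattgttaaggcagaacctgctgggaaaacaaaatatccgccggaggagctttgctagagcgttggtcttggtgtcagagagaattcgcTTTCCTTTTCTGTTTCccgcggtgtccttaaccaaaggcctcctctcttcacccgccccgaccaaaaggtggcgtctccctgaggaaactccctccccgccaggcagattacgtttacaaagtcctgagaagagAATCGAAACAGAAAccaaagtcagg
RNF125: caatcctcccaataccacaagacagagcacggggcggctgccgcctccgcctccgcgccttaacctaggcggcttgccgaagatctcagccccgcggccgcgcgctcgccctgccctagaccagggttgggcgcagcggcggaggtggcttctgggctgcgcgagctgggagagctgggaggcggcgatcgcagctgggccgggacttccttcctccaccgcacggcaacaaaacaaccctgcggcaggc

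The DDX58 window held 3 matches to AANNGAAA and none to the longer motif. The IFIH1 window held 4 matches to AANNGAAA and 3 to the longer motif, one of them 21 bases before the start site. Neither motif was found in the windows of RNF125, MAVS or TBK1, and the STAT motif TTCNNNGAA was found in none of the 5. Among 15843 promoters of protein-coding genes, 17% held AANNGAAA, 2.72% held the longer motif and 6.12% held TTCNNNGAA. A match is a description of letters and not evidence of binding.

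The RNA sensors were high in both truncation lines. DDX58 (hg19 chromosome 9, 32455300 to 32526322) was at 48.6 and 56.1 CPM in LBD, 51.2 and 44.0 in Kashlid, 11.1 and 14.2 in SUN2KO, and 12.8 and 13.2 in WT. The LBD and Kashlid libraries overlapped and all 4 lay above the 4 SUN2KO and WT libraries, which overlapped with each other. Lack of overlap between 2 groups is common here and is no mark of these genes or of those below. Of all genes tested, 70% in LBD, 71.1% in Kashlid and 69.4% in SUN2KO did not overlap with WT. The share was 54.6% for LBD against SUN2KO, 56.8% for Kashlid against SUN2KO and 43.8% for LBD against Kashlid. Against WT, the log2 fold change of DDX58 was 2.01 ± 0.11 (SE) in LBD, 1.87 ± 0.12 in Kashlid and -0.04 ± 0.13 in SUN2KO. That is 402% of the WT level in LBD, 366% in Kashlid and 97.2% in SUN2KO. Because these are bulk libraries, a change in every cell and a change in some of the cells cannot be told apart, here or for the genes below.

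Against SUN2KO, DDX58 rose by 2.05 ± 0.11 in LBD (95% interval 1.81 to 2.29, adjusted p = 3.73e-11, edgeR's quasi-likelihood test, Benjamini-Hochberg over all genes). In Kashlid it rose by 1.91 ± 0.11 over SUN2KO (1.67 to 2.15, adjusted p = 1.34e-10 in edgeR). These comparisons share the SUN2KO libraries. Between the truncations, DDX58 in LBD was 0.14 ± 0.10 above Kashlid, with an interval of -0.07 to 0.34 that spans no difference.

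IFIH1 (chromosome 2, 163123589 to 163175218) was at 20.5 and 20.3 CPM in LBD, 18.6 and 20.8 in Kashlid, 12.3 and 10.7 in SUN2KO, and 6.78 and 8.12 in WT. It stood at a level between the others in SUN2KO, with no overlap with the truncation lines above or with WT below. The log2 fold change against WT was 1.45 ± 0.13 in LBD, 1.40 ± 0.13 in Kashlid and 0.63 ± 0.14 in SUN2KO. Against SUN2KO, IFIH1 rose by 0.82 ± 0.12 in LBD (0.57 to 1.08, adjusted p = 7.08e-05 in edgeR). In Kashlid it rose by 0.77 ± 0.12 over SUN2KO (0.51 to 1.03, adjusted p = 0.000132 in edgeR), and the truncation lines overlapped (LBD over Kashlid 0.06, interval -0.19 to 0.30).

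DHX58 encodes LGP2, a relative of the other helicases that lacks their signalling domains. It was scarce, with raw counts of 29 and 31 in LBD, 20 and 31 in Kashlid, 6 and 4 in SUN2KO, and 14 and 7 in WT, and it passed the filter through the truncation lines. On the CPM scale it was at 1.68 and 1.85 in LBD, 1.16 and 1.82 in Kashlid, 0.325 and 0.215 in SUN2KO, and 0.832 and 0.398 in WT. All 4 truncation libraries were above all WT libraries, and both SUN2KO libraries were below them. The log2 fold change against WT was 1.52 ± 0.45 in LBD, 1.27 ± 0.46 in Kashlid and -1.16 ± 0.62 in SUN2KO. Without WT replicate 1 the LBD and Kashlid values were 2.13 and 1.88, so the size rests on a WT pair that differed widely. Against SUN2KO, the log2 fold change was 2.68 ± 0.52 in LBD and 2.43 ± 0.53 in Kashlid. These are given without a p-value, because the gene entered the tested set only through the lines where it was high.

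**Figure D1:**
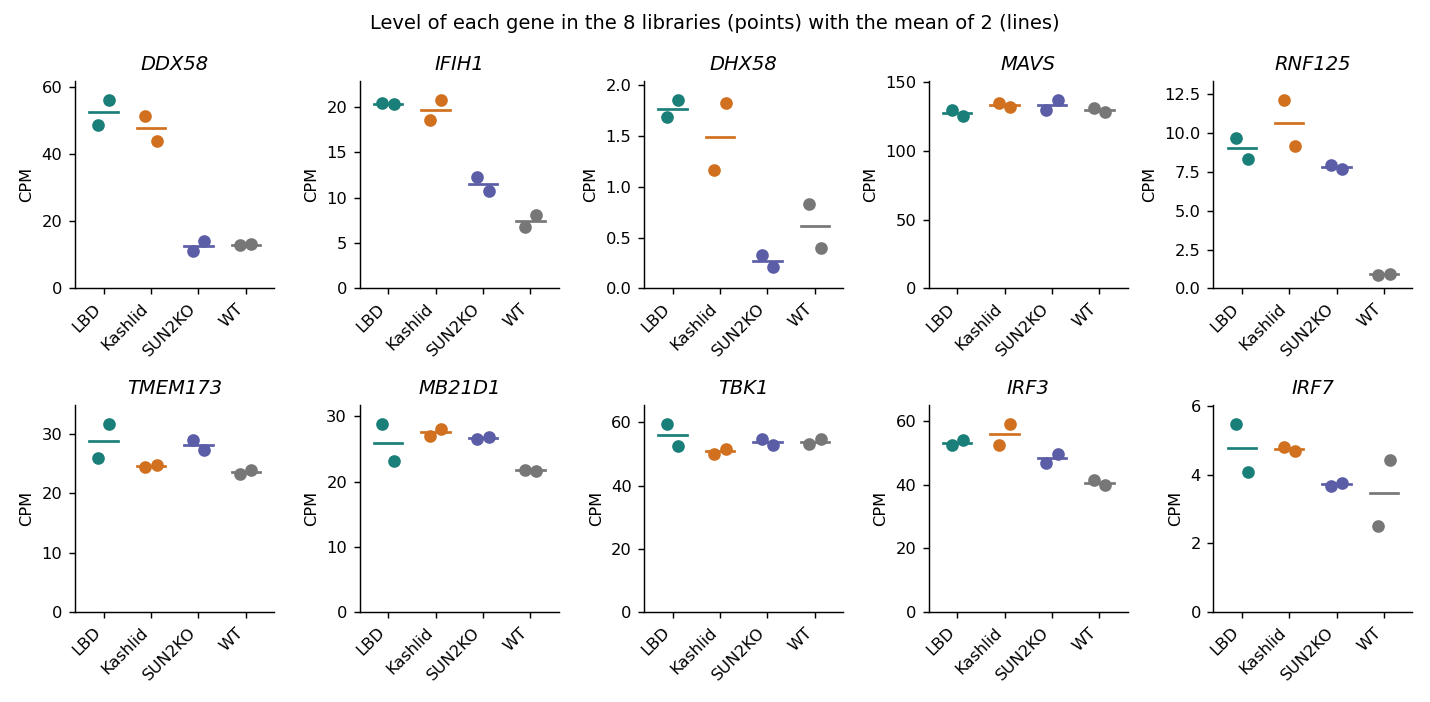
Level of each of the 10 genes in CPM (counts scaled to the TMM-adjusted library total, linear axis from 0) in the LBD, Kashlid, SUN2KO and WT libraries, with points for single libraries and lines for the mean of 2. DDX58 sat at 44.0 to 56.1 CPM in the truncation lines against 11.1 to 14.2 CPM in SUN2KO and WT, while RNF125 was high in all 3 modified lines and near 0.9 CPM in WT.

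RNF125, the negative regulator of the RNA sensors, followed another pattern. RNF125 (chromosome 18, 29598445 to 29653154) was at 9.66 and 8.31 CPM in LBD, 12.1 and 9.15 in Kashlid, 7.95 and 7.68 in SUN2KO, and 0.892 and 0.909 in WT. The raw counts were 167 and 139 in LBD, 210 and 156 in Kashlid, 147 and 143 in SUN2KO, and only 15 and 16 in WT. Every modified library was far above both WT libraries. The log2 fold change against WT was 3.31 ± 0.25 in LBD, 3.55 ± 0.24 in Kashlid and 3.11 ± 0.25 in SUN2KO, which corresponds to 991%, 1170% and 862% of the WT level in those lines.

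Between modified lines, RNF125 differed much less. LBD was 0.20 ± 0.17 above SUN2KO (-0.16 to 0.56, adjusted p = 0.514 in edgeR), and LBD was 0.24 below Kashlid on the fitted scale (log2 fold change -0.24, interval -0.59 to 0.10). Kashlid was 0.45 ± 0.17 above SUN2KO (0.09 to 0.80), which missed the threshold (adjusted p = 0.0731 in edgeR). The adjusted p was 0.0487 with no filter on low counts, 0.501 without Kashlid replicate 1 (the library at 12.1 CPM), where the value was 0.23, and 0.0153 without Kashlid replicate 2, where it was 0.64 (all in edgeR). Whether RNF125 differed between Kashlid and SUN2KO was therefore not settled by these libraries.

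MAVS (chromosome 20, 3827446 to 3856770), the adaptor of both RNA sensors, was level across groups. It was at 130 and 125 CPM in LBD, 135 and 132 in Kashlid, 130 and 137 in SUN2KO, and 131 and 128 in WT. Its log2 fold change against WT was -0.02 ± 0.05 in LBD, 0.04 ± 0.05 in Kashlid and 0.04 ± 0.05 in SUN2KO. The tested genes within 2.5 Mb of MAVS had a median of -0.27 in LBD, -0.28 in Kashlid and -0.31 in SUN2KO, and MAVS relative to that median was at 0.24, 0.32 and 0.35 in the same lines, a setting in which it was called higher in all 3. Against SUN2KO the intervals of MAVS were -0.18 to 0.05 in LBD and -0.12 to 0.11 in Kashlid.

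In the DNA route the differences were small. MB21D1 (chromosome 6, 74134856 to 74162043), the gene of cGAS, was at 28.9 and 23.1 CPM in LBD, 27.0 and 28.1 in Kashlid, 26.6 and 26.8 in SUN2KO, and 21.8 and 21.7 in WT. All 6 modified libraries were above both WT libraries, by 0.26 ± 0.11 in LBD, 0.34 ± 0.10 in Kashlid and 0.30 ± 0.10 in SUN2KO as log2 fold change. The LBD value was 0.09 without LBD replicate 1 and 0.42 without LBD replicate 2.

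TMEM173 (chromosome 5, 138855113 to 138862343), the gene of STING, was at 26.0 and 31.7 CPM in LBD, 24.4 and 24.8 in Kashlid, 29.0 and 27.2 in SUN2KO, and 23.3 and 23.9 in WT. Kashlid lay just above WT, and the LBD and SUN2KO libraries overlapped above them. The log2 fold change against WT was 0.29 ± 0.10 in LBD, 0.06 ± 0.10 in Kashlid and 0.25 ± 0.10 in SUN2KO. The LBD value was 0.14 without LBD replicate 2 and 0.43 without LBD replicate 1. Neither gene of the DNA route differed between modified lines at the threshold, and the interval that lay farthest from 0 was that of TMEM173 in LBD over Kashlid (0.02 to 0.44, adjusted p = 0.257 in edgeR).

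TBK1 (chromosome 12, 64845840 to 64895899), the kinase on which both routes meet, was at 59.6 and 52.4 CPM in LBD, 49.9 and 51.7 in Kashlid, 54.8 and 52.9 in SUN2KO, and 53.0 and 54.8 in WT. Its log2 fold change against WT was 0.05 ± 0.07 in LBD, -0.09 ± 0.07 in Kashlid and 0.00 ± 0.07 in SUN2KO. The groups lay close together, with the 2 Kashlid libraries lowest.

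IRF3 (chromosome 19, 50162826 to 50169132), the constitutively expressed target of TBK1, was at 52.3 and 53.9 CPM in LBD, 52.3 and 59.1 in Kashlid, 46.9 and 49.6 in SUN2KO, and 41.4 and 39.8 in WT. The modified lines did not overlap with WT, which held for 69.4% to 71.1% of all genes, depending on the line. The log2 fold change was 0.39 ± 0.08 in LBD, 0.46 ± 0.08 in Kashlid and 0.25 ± 0.08 in SUN2KO. IRF3 overlaps BCL2L12 on the genome and counting by strand is not stated, so reads of the pair may be shared, and BCL2L12 itself was at 0.10 ± 0.09, 0.13 ± 0.09 and 0.04 ± 0.09 in LBD, Kashlid and SUN2KO. Neighbouring genes of IRF3 had a median of 0.13 to 0.17 against WT, and relative to them IRF3 was at 0.25 in LBD, 0.29 in Kashlid and 0.12 in SUN2KO, where it was no longer called. Kashlid was 0.21 ± 0.08 above SUN2KO (0.05 to 0.36), which missed the threshold (adjusted p = 0.0606 in edgeR). The value was 0.29 without Kashlid replicate 1 and 0.12 without Kashlid replicate 2 (the library at 59.1 CPM). Whether IRF3 differed between Kashlid and SUN2KO was therefore not settled by these libraries.

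IRF7 (chromosome 11, 612555 to 615999), the interferon-inducible partner of IRF3, was at 5.49 and 4.07 CPM in LBD, 4.80 and 4.69 in Kashlid, 3.68 and 3.76 in SUN2KO, and 2.5 and 4.43 in WT. The WT libraries spanned the SUN2KO values and reached into those of LBD, while all 4 truncation libraries lay above both SUN2KO libraries. The log2 fold change against WT was 0.46 ± 0.25 in LBD, 0.45 ± 0.25 in Kashlid and 0.10 ± 0.26 in SUN2KO, and without WT replicate 1 it was 0.11, 0.10 and -0.25 in the same lines. Against SUN2KO, IRF7 was at 0.36 ± 0.25 in LBD (-0.15 to 0.88) and 0.35 ± 0.25 in Kashlid (-0.17 to 0.87), and neither passed the test (adjusted p = 0.395 and 0.367 in edgeR).

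Counted by the test, 6 of the 10 genes were higher than WT in LBD (DDX58, IFIH1, DHX58, RNF125, TMEM173 and IRF3), where 40.0% of all genes tested were called in either direction. In Kashlid over WT 6 were higher (DDX58, IFIH1, DHX58, RNF125, MB21D1 and IRF3), against 44.5% of all genes called. In SUN2KO over WT 4 were higher (IFIH1, RNF125, MB21D1 and IRF3), against 36.7% of all genes called. Nothing is read from these 3 counts, because the genes were chosen with comparisons of this kind known. A 2-fold limit left 4, 4 and 1 of these calls in LBD, Kashlid and SUN2KO. Other alternatives also ended calls of some genes. DHX58 was not called without WT replicate 2 (1.08 in LBD and 0.83 in Kashlid), nor in LBD without LBD replicate 2 (1.45) or in Kashlid without Kashlid replicate 2 (0.91) or in DESeq2 (1.28). TMEM173 in LBD was not called without LBD replicate 2 (0.14), WT replicate 1 (0.27) or WT replicate 2 (0.31), nor in DESeq2 (0.29) or with the median of its neighbours taken out (0.25). MB21D1 was not called without WT replicate 1 or 2 in Kashlid (0.34 each) or without any 1 of the 4 libraries compared in SUN2KO (0.29 to 0.31). In SUN2KO it was also not called in DESeq2 (0.29) or relative to its neighbours (0.21). In LBD, where the main fit missed it, MB21D1 was called with library size only (0.29), no filter (0.26), the stricter filter (0.27) or the replicate block (0.26). It was also called there without LBD replicate 2 (0.42). TMEM173 in SUN2KO, missed in the main fit, was called with the 2 groups alone and with the replicate block (0.25 each). IRF3 in SUN2KO was not called without SUN2KO replicate 2 (0.21) or WT replicate 2 (0.22), and IRF7 was called without WT replicate 2 in LBD (0.94) and Kashlid (0.93).

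Between modified lines, DDX58 and IFIH1 were higher in LBD than in SUN2KO, where 13.5% of all genes were called, and higher in Kashlid than in SUN2KO, where 18.0% were called. DHX58 is left out here, because it passed the filter only through the lines where it was high. DDX58 kept its call in every alternative. IFIH1 kept its call in every alternative except the 2-fold limit, which its values of 0.82 and 0.77 do not reach. Between LBD and Kashlid edgeR called 0 of the 10, with 1 (TMEM173) at an unadjusted p under 0.05, DESeq2 also called 0, and 2.91% of all genes were called by edgeR.

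**Figure D2:**
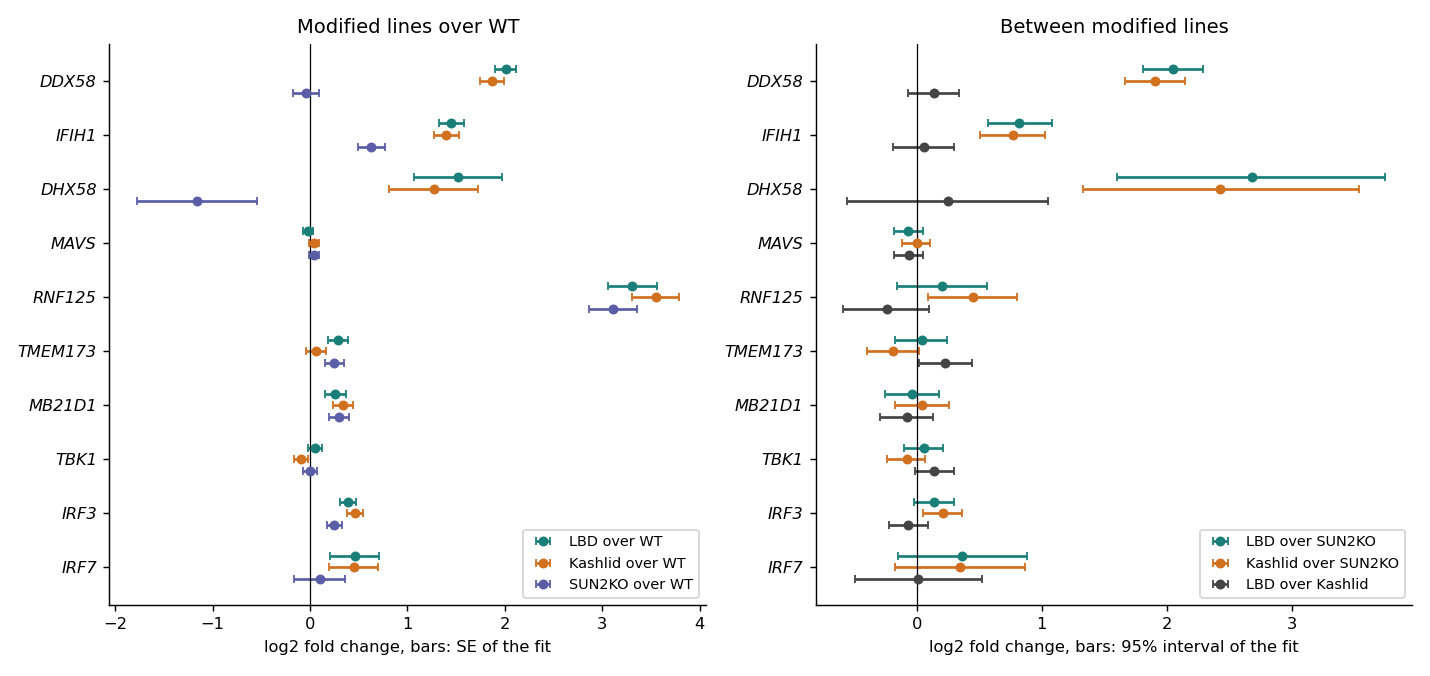
Log2 fold change of the 10 genes in LBD, Kashlid and SUN2KO over WT (left, bars are the SE of the fit) and between modified lines (right, bars are 95% intervals). DDX58 and IFIH1 lie above 0 in both truncations over SUN2KO, by 0.77 to 2.05. RNF125 lies at 3.11 to 3.55 in all 3 lines over WT and at -0.24 to 0.45 between lines. The bars of DHX58 are not read as a test, because it passed the filter through the truncation lines.

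The neighbours of 3 of the genes were examined because earlier results had shown stretches of neighbouring genes moving together in these lines. DDX58 had 31 tested neighbours within 2.5 Mb, with medians of -0.21 in LBD, -0.16 in Kashlid and -0.05 in SUN2KO against WT. None of the 31 exceeded DDX58 in LBD or Kashlid, while 15 did in SUN2KO. RNF125 had 6 neighbours, with medians of 0.08, 0.33 and 0.06 in LBD, Kashlid and SUN2KO, and the highest value among them was 0.89 (B4GALT6 in LBD).

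IFIH1 had 12 neighbours, with medians of -0.21 in LBD, -0.07 in Kashlid and 0.09 in SUN2KO against WT. The closest on each side moved in opposite directions in all 3 lines: GCA, which encodes the calcium-binding protein grancalcin, was at 1.12 in LBD, 1.25 in Kashlid and 1.08 in SUN2KO, and FAP, a surface protease, was at -1.24, -1.54 and -1.07 in the same lines. In SUN2KO over WT 3 of the 12 neighbours exceeded IFIH1, and none did in LBD or Kashlid. The part of the regional differences in the IFIH1 value in SUN2KO was not tested beyond the offset, which left it at 0.54.

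**Figure D3:**
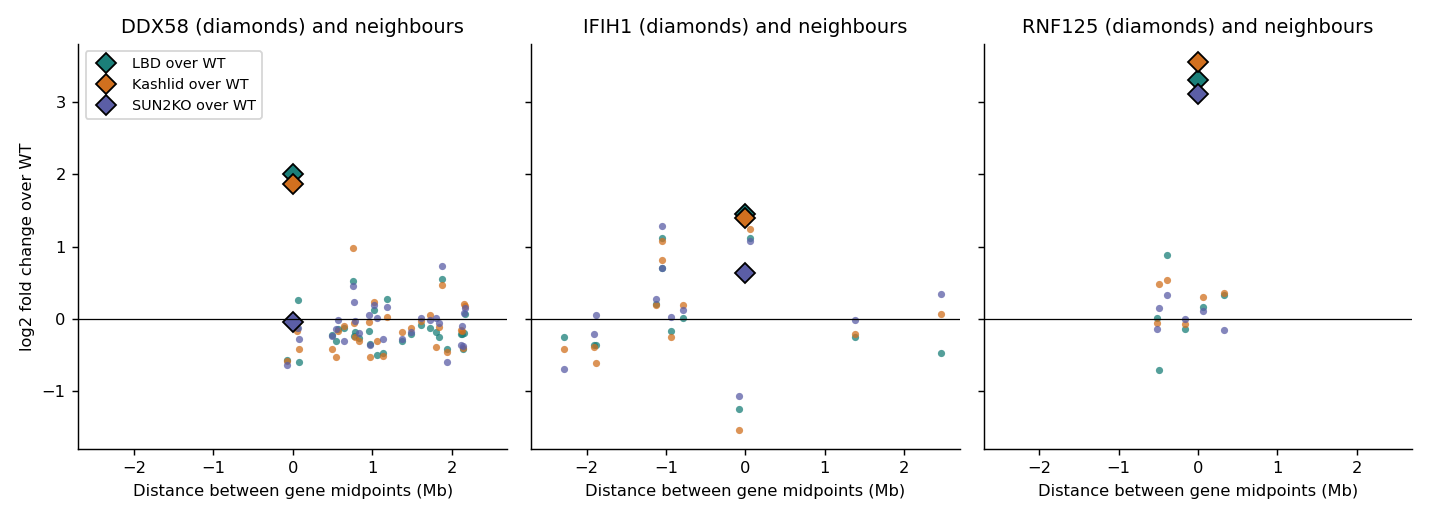
Log2 fold change over WT of DDX58, IFIH1 and RNF125 (diamonds) and of the tested genes within 2.5 Mb (points), by distance between gene midpoints in Mb, for LBD, Kashlid and SUN2KO. DDX58 in both truncations and RNF125 in all 3 lines stand above their neighbours, while DDX58 in SUN2KO lies among its neighbours at -0.04.

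Beside the 10 genes, 93 tested genes of the surrounding pathways were examined in 4 lists, which were written with an earlier account of these libraries known. Of 28 regulators and helicases of RNA sensing, 9 were higher and 2 lower in LBD over WT (median 0.09, against 0.00 over all genes), 9 and 5 in Kashlid over WT (median 0.09), and 8 and 5 in SUN2KO over WT (median 0.09). Over SUN2KO, 5 were higher and 4 lower in LBD (median 0.00), and 4 and 3 in Kashlid (median 0.07). The shares called, 39.3%, 50% and 46.4% against WT and 32.1% and 25% against SUN2KO in the same order, stand beside the shares over all genes given above, and each of these 5 comparisons held calls in both directions. The genes named next are among the largest changes of each list and, except where stated, passed in every alternative setting that tested them apart from the 2-fold limit, as did 44 of 101 such gene and comparison pairs. Their p-values, against WT and between lines, are no independent evidence. The same libraries had been examined before the lists were written, and the genes were picked as large changes in these same fits.

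DDX60, an interferon-induced helicase, rose in both truncations and fell in SUN2KO. DDX60 was at 75.3 and 83.5 CPM in LBD, 71.8 and 82.9 in Kashlid, 18.2 and 20.0 in SUN2KO, and 33.5 and 38.2 in WT. It rose over WT by 1.15 ± 0.09 in LBD and 1.11 ± 0.09 in Kashlid, and it fell in SUN2KO (-0.91 ± 0.10), with adjusted p of 1.78e-09, 2.31e-09 and 4.31e-07 in edgeR. Over SUN2KO it rose by 2.05 ± 0.09 in LBD and by 2.01 ± 0.09 in Kashlid (adjusted p = 1.27e-12 and 1.68e-12 in edgeR).

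TNFAIP3, which encodes the inhibitor A20, was at 40.0 and 49.2 CPM in LBD, 65.7 and 37.8 in Kashlid, 25.8 and 25.2 in SUN2KO, and 109 and 116 in WT. It fell against WT in all 3 lines (-1.33 ± 0.14 in LBD, -1.12 ± 0.14 in Kashlid and -2.14 ± 0.15 in SUN2KO, adjusted p of at most 1.78e-06 in edgeR). ZC3HAV1, the antiviral zinc finger protein ZAP, was at 211 and 208 CPM in LBD, 165 and 189 in Kashlid, 138 and 130 in SUN2KO, and 161 and 162 in WT. It was higher in LBD than in SUN2KO by 0.65 ± 0.06 (adjusted p = 1.26e-07 in edgeR), with WT between the 2 lines. In Kashlid the helicase DHX9 was lower than in SUN2KO (-0.33 ± 0.05, adjusted p = 5.95e-05 in edgeR), as was DDX1 (-0.33 ± 0.05, adjusted p = 0.000155 in edgeR). Both were also lower in LBD than in SUN2KO, though not called in every alternative. There DHX9 was at -0.19 ± 0.05 and DDX1 at -0.26 ± 0.05 (adjusted p = 0.014 and 0.00214 in edgeR). Helicases of the list thus did not share a direction. DDX1 averaged 223 CPM in LBD, 212 in Kashlid, 267 in SUN2KO and 202 in WT, and was higher in SUN2KO than in WT (0.41 ± 0.05, adjusted p = 6.68e-06 in edgeR). DHX9 averaged 569 CPM in LBD, 515 in Kashlid, 648 in SUN2KO and 579 in WT.

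Of 26 sensors, nucleases and regulators of the DNA route, 3 were higher and 7 lower in LBD over WT (median -0.03), 4 and 7 in Kashlid over WT (median -0.02), and 3 and 9 in SUN2KO over WT (median -0.10). The shares called were 38.5%, 42.3% and 46.2%, beside 40.0%, 44.5% and 36.7% of all genes. Over SUN2KO 4 were higher and 1 lower in each truncation (median 0.02 and 19.2% called in both, beside 13.5% of all genes in LBD and 18.0% in Kashlid). IFI16, a nuclear DNA sensor, was at 131 and 137 CPM in LBD, 148 and 145 in Kashlid, 109 and 107 in SUN2KO, and 85.3 in both WT libraries. It rose over SUN2KO by 0.31 ± 0.05 in LBD and 0.44 ± 0.05 in Kashlid (adjusted p = 0.000396 and 5.57e-06 in edgeR). SURF4, which returns STING to the endoplasmic reticulum, fell against WT (-0.54 ± 0.04 in LBD, -0.62 ± 0.04 in Kashlid and -0.57 ± 0.04 in SUN2KO, adjusted p of at most 5.43e-09 in edgeR). ENPP1, the hydrolase of extracellular cGAMP, fell against WT in LBD and Kashlid (-1.28 ± 0.20 and -0.78 ± 0.19, adjusted p = 3.05e-05 and 0.00219 in edgeR), though its LBD libraries differed (7.23 and 3.77 CPM).

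Of 23 adaptors, kinases and Toll-like receptors, 6 were higher and 2 lower in LBD over WT (median 0.12), 5 and 3 in Kashlid over WT (median 0.12), and 3 and 2 in SUN2KO over WT (median 0.10). The shares called, 34.8%, 34.8% and 21.7%, were below those over all genes. The caspase gene CASP10 rose over WT by 1.83 ± 0.29 in LBD, 1.57 ± 0.29 in Kashlid and 1.46 ± 0.29 in SUN2KO (adjusted p of at most 0.000535 in edgeR). OPTN, an autophagy receptor that binds TBK1, was at 32.9 and 35.9 CPM in LBD, 33.2 and 34.8 in Kashlid, 31.4 and 30.1 in SUN2KO, and 49.6 and 55.2 in WT. It fell against WT in all 3 lines (-0.61 ± 0.08 in LBD, -0.62 ± 0.08 in Kashlid and -0.77 ± 0.08 in SUN2KO, adjusted p of at most 5.83e-06 in edgeR). With the median of its neighbours taken out it was at -0.06 in both LBD and Kashlid and no longer called there. Over SUN2KO 1 of the 23 was higher in LBD and 2 in Kashlid (medians 0.09 and 0.01). The shares called were 4.35% and 8.7%, beside 13.5% and 18.0% of all genes.

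Of 16 genes of interferon output, 6 were higher and 3 lower in LBD over WT (median 0.12), 7 and 3 in Kashlid over WT (median 0.16), and 2 and 4 in SUN2KO over WT (median 0.07). The shares called were 56.2%, 62.5% and 37.5%, beside 40.0%, 44.5% and 36.7% of all genes, on a list of few genes that was not tested as a set. IRF1, an interferon-inducible transcription factor, rose over WT by 0.64 ± 0.13 in LBD and 0.56 ± 0.13 in Kashlid (adjusted p = 0.000359 and 0.00109 in edgeR). The receptor subunit IFNAR1 fell against WT (-0.59 ± 0.08 in LBD and -0.69 ± 0.08 in Kashlid, adjusted p of at most 3.61e-06 in edgeR). IFNAR1 was also lower in SUN2KO (-0.45 ± 0.08, adjusted p = 9.46e-05 in edgeR), but at -0.15 and not called there with the median of its neighbours taken out. The receptor kinase JAK1 fell against WT (-0.43 ± 0.05 in LBD and -0.59 ± 0.05 in Kashlid, adjusted p of at most 2.64e-06 in edgeR). JAK1 averaged 117 CPM in LBD, 105 in Kashlid, 139 in SUN2KO and 158 in WT. SOCS3, a feedback inhibitor of cytokine receptors, rose in Kashlid over SUN2KO by 0.49 ± 0.09 (adjusted p = 0.000378 in edgeR). Over SUN2KO 2 were higher and 1 lower in LBD (median 0.07), and 4 and 2 in Kashlid (median 0.18). Between LBD and Kashlid, 1 of the 28 RNA sensing genes was higher and 1 of the 16 interferon output genes lower, and edgeR called 0 in the DNA sensing and adaptor lists (5 and 2 at an unadjusted p under 0.05, and 0 in both by DESeq2). The shares called in the RNA sensing and interferon output lists were 3.57% and 6.25%, beside 2.91% of all genes.

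**Figure D4:**
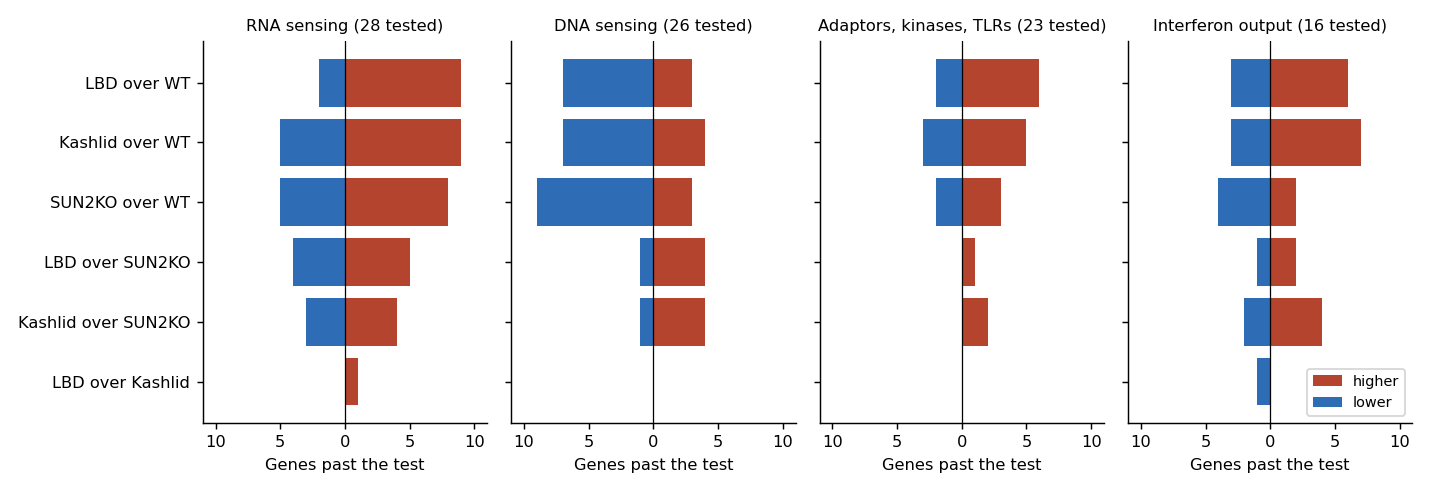
Number of genes past the test in each of 4 pathway lists (28, 26, 23 and 16 genes tested) that were higher (red, right of 0) or lower (blue, left of 0), for LBD, Kashlid and SUN2KO over WT and for the comparisons between modified lines. All 4 lists hold calls in both directions in each comparison with WT, and LBD over Kashlid holds 1 higher and 1 lower call in all.

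The genes most like DDX58 and RNF125 were taken by Pearson correlation of log2 CPM over the 8 libraries, among 10865 genes with at least 5 CPM. For DDX58 they were IFIT1 (r = 0.994), IFIT2 (0.993), OASL (0.992), MAL2 (0.99) and DMBT1 (0.987). OASL averaged 284 ± 29.3 CPM in LBD, 261 ± 16.9 in Kashlid, 48.5 ± 1.09 in SUN2KO and 44.3 ± 1.41 in WT. IFIT1 averaged 78.3 ± 6.95 CPM in LBD, 80.3 ± 2.05 in Kashlid, 16.5 ± 3.69 in SUN2KO and 16.4 ± 1.97 in WT. As the choice by correlation with DDX58 implies, both were high in the truncations and near WT in SUN2KO.

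For RNF125 they were SLC6A15 (r = 0.998), HPS1 (0.997), ZRANB1 (0.996), CCNA1 (0.996) and MYO1D (0.994). The neutral amino acid transporter gene SLC6A15 averaged 88.1 ± 0.349 CPM in LBD, 104 ± 13.4 in Kashlid, 80.1 ± 7.76 in SUN2KO and 19.7 ± 0.354 in WT. CCNA1, which encodes cyclin A1, averaged 15.1 ± 1.02 CPM in LBD, 14.5 ± 2.20 in Kashlid, 12.5 ± 0.738 in SUN2KO and 2.59 ± 0.124 in WT. HPS1 moved least of the 5, by 0.52 in LBD, 0.56 in Kashlid and 0.49 in SUN2KO against WT on the log2 scale. These correlations describe 8 libraries in 4 groups, which share their group means, and carry no test.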

How the data were processed

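RNA from 10000000 MDA-MB-231 cells per sample was sequenced as paired-end libraries, per the labels. Per the submitters' processing notes, reads were trimmed with Trim Galore, aligned to hg19 with STAR 2.7.1a and counted with HTSeq, and bedtools 2.24.0 and DESeq2 were also used. The deposited count values are raw reads per gene. Neither the annotation version nor the strand setting was given in the sources used here, and overlapping genes may share reads. Entries without a gene name numbered 0.

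Also deposited were 3 tables of comparisons with WT, without column names. The log2 fold changes deposited by the authors came from DESeq2, per the submitters' processing notes, were recognised by r = 0.999 with those computed here, and served only as a check. The p-values deposited by the authors came from the same comparisons and were recognised because their Benjamini-Hochberg adjustment gave the next column. Each table also held unnamed per-sample columns, 4 in number, which were not used.

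The counts were filtered with filterByExpr (minimum count 10), scaled by TMM and fitted by edgeR 4.0.16 (R 4.3.3) in 1 quasi-likelihood model of 4 groups and 8 libraries, with 4 residual degrees of freedom. Two-sided p-values were adjusted by Benjamini-Hochberg over the 14016 genes of a comparison, with a threshold of 0.05. Fold changes carry the SE of the fit and levels in CPM the SD of 2 libraries. CPM is not scaled by gene length, so levels of different genes are not compared. Replicates of a group differed beyond counting noise (chi-square per degree of freedom 2.46 to 5.36), so each was kept.

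The members, pathway lists and motifs were chosen with earlier results of these data known. All 10 members were named. From each pathway list up to 3 genes higher and 3 lower per comparison, by size among those past the threshold, were candidates, and those that held in every alternative other than the 2-fold limit were eligible for the text. OPTN in LBD and Kashlid, IFNAR1 in SUN2KO, and DHX9 and DDX1 in LBD over SUN2KO were added after their values were seen. For DDX58 and RNF125 the 5 most correlated genes were taken. Genes next to IFIH1 and RNF125 were named after their values were seen. Promoters came from RefSeq (GRCh38.p14), whereas gene coordinates are on hg19, from the deposited tables.

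Alternatives were DESeq2 1.42.0, scaling by median-ratio factors or by library size only, testing without a filter or with at least 5 CPM in 2 libraries (the stricter filter), fitting only the 2 groups compared, the replicate block, omitting each library in turn, a window offset (the median of at least 10 neighbours within 2.5 Mb taken out) and a 2-fold limit. The steps were tested on simulated data.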

Additional observations from a re-analysis of the deposited data

How the results depend on the processing

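The higher levels of DDX58 in LBD and Kashlid over SUN2KO kept their direction and call in every alternative, and those of IFIH1 in every alternative except the 2-fold limit. DHX58 and IRF7 were not tested under the stricter filter. The window offset could not be applied to RNF125, which had 6 tested neighbours. With 2 libraries per group, small differences are limited by the spread between libraries, and DHX58, RNF125 in WT and IRF7 by counts.

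Some values of the 10 genes that missed the threshold changed sign. Leaving out 1 library at a time in LBD over SUN2KO, TMEM173 ranged from -0.11 (without LBD replicate 2) to 0.18, MB21D1 from -0.20 to 0.12 (without LBD replicate 2) and TBK1 from -0.04 (without LBD replicate 1) to 0.15. TMEM173 was also negative without SUN2KO replicate 2 (-0.01). In LBD over Kashlid, IFIH1 ranged from -0.02 to 0.14 and DHX58 from -0.04 to 0.61 (both lowest without Kashlid replicate 1), MB21D1 from -0.25 to 0.07 (without LBD replicate 2), IRF3 from -0.15 to 0.02 (without Kashlid replicate 2) and IRF7 from -0.22 (without LBD replicate 1) to 0.21. With the window offset MB21D1 in LBD over SUN2KO was at 0.01 and IRF7 in LBD over Kashlid at -0.02. With that offset RNASEH2B turned to -0.03 in SUN2KO and -0.02 in Kashlid over WT, CHUK to -0.05 in SUN2KO over WT, SMURF1 to 0.01 in Kashlid over WT, and IKBKB to 0.13 in LBD and 0.08 in Kashlid over WT. The cause was not tested.

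Members called in SUN2KO over WT numbered 2 to 3 without 1 library (2 without SUN2KO replicate 2 or WT replicate 2) and 1 at a 2-fold limit, against 4. Called pathway genes, without 1 library, numbered 24 to 32 in LBD over WT, 28 to 37 in Kashlid over WT, 21 to 28 in SUN2KO over WT, 5 to 12 in LBD over SUN2KO, 10 to 19 in Kashlid over SUN2KO and 0 to 5 in LBD over Kashlid. At a 2-fold limit they numbered 5, 3, 4, 2, 3 and 0 in that order. DESeq2 called 13 of them in Kashlid over SUN2KO. For LBD over Kashlid there were 5 with no filter, 1 with the 2 groups alone and 4 with the window offset, against 2. Library size only gave 19 higher and 4 lower in Kashlid over SUN2KO (14 and 6 with TMM), and 1 higher and 2 lower in LBD over Kashlid (1 and 1). Over all genes, a 2-fold limit left 813, 918, 630, 290, 320 and 16 in the same order. Without 1 library, 884 to 1355 were called in LBD over SUN2KO, 1186 to 2375 in Kashlid over SUN2KO and 129 to 839 in LBD over Kashlid. For LBD over Kashlid 775 were called with no filter and 129 with the 2 groups alone.

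Replicate numbers are shared between groups but the labels give them no meaning. The deviations of same-numbered libraries correlated at -0.0187 to 0.221 over the 6 comparisons, above 0.1 in 4 of them. With only 2 pairs in each comparison this does not settle whether the numbers pair the libraries, and they were treated as sharing only a number. With the replicate block, members called were 7 in LBD, 6 in Kashlid and 5 in SUN2KO over WT, 3 in LBD and 4 in Kashlid over SUN2KO (IRF3 added, adjusted p = 0.0444 in edgeR) and 0 in LBD over Kashlid. The counts over SUN2KO include DHX58, from which nothing is read because of how it passed the filter. All genes called with the replicate block were 5798, 6457, 5412, 2134, 2787 and 581, and pathway genes 39, 43, 41, 21, 22 and 3, in the same order.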

Other observations

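Several genes downstream of the sensors were too scarce to be tested, and their raw counts are given without a fold change. IFNB1, the gene of interferon beta, had 1 and 5 counts in the LBD libraries, 0 and 7 in Kashlid, 0 in both SUN2KO libraries, and 0 and 2 in WT. IFNL1, a type III interferon, had 12 and 2 counts in LBD, 4 and 1 in Kashlid, 0 in both SUN2KO libraries, and 1 and 0 in WT. AIM2, a cytosolic DNA sensor that forms inflammasomes, had 7 and 6 counts in LBD, 4 and 6 in Kashlid, 1 and 0 in SUN2KO, and 1 and 0 in WT. IFNA1 and ZBP1 had 0 counts in every library. The interferon counts differed widely between replicates of a group.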
